A study of Camelina sativa with 12 samples.

Results

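The 100 genes described here were those of Camelina sativa, a hexaploid oilseed crop, whose transcripts were lower in all shoot libraries of the rolD::acdS line than in the 3 other groups. They were selected on the measured read counts themselves, taken as CPM (each count scaled to a library total of 1000000). A gene was kept when its mean was 2 CPM or more in each of the other 3 groups, when all 3 rolD::acdS libraries lay below the other 9, and when the 35S::acdS mean was 0.8 of the control mean or more. The genes kept were ranked on log2 of the smallest of the 3 other group means over the rolD::acdS mean, with 0.5 added to both, and the first 100 of 348 were taken. Of the 89418 genes in the table, 42112 passed the floor of 2 CPM and 375 of those, or 0.89%, had all rolD::acdS libraries lowest. The low rolD::acdS level of the members is therefore what chose them, and it is given below as a description with no test.

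RNA from shoot tissue of plants stated to be 28 days old was sequenced in 12 libraries, 3 per group. Every plant, controls included, had received NaCl at 15 dS per m (192 mM) for a stated 21 days. This age and duration conflict with the day after sowing on which the study says salt began, and the conflict is not resolved here. In the rolD::acdS group, the bacterial gene acdS was carried by DH55 plants under a promoter most active in roots, although shoots were sampled. In the 35S::acdS group, the same gene was driven by a constitutive promoter. Whether the soil of the transgenic groups was given buffer was not stated in the sources used here. In the 8R6 group, DH55 plants without a transgene grew in soil inoculated with the bacterium Pseudomonas migulae 8R6, which carries acdS, and the control was DH55 in soil given buffer alone. The transgenic plants came from individual lines with 1 copy of the transgene, so the promoter and the line cannot be told apart.

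The acdS gene encodes ACC deaminase, an enzyme that breaks down 1-aminocyclopropane-1-carboxylate, the immediate precursor of the plant hormone ethylene. Of the 19 annotated members, 7 belong to the cell wall bin, a group of genes assigned to wall functions in the study's annotation. That annotation was available only for genes the study had called, and its list for rolD::acdS was held in part. Growing plant cells are held by cellulose fibres tied together by xyloglucan and embedded in pectin, and xyloglucan endotransglucosylase/hydrolases (XTHs) cut and rejoin the xyloglucan chains as the wall loosens. Arabinogalactan proteins (AGPs) are heavily glycosylated proteins of the cell surface, and myo-inositol oxygenase opens a route by which inositol becomes glucuronic acid, a building block of wall polysaccharides.

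The libraries held 10520627 to 23587748 counts. The rolD::acdS libraries of replicates 2 and 3 were the 2 shallowest (10748399 and 10520627 counts), whereas replicate 1 was among the deepest with 23267552. Next in depth came 35S::acdS replicate 3 with 11099030 counts, in which the members stood at 1.22 times their own geometric mean over the 12 libraries. On the same measure they stood at 0.783 in the deep rolD::acdS replicate 1 and at 0.570 and 0.610 in the shallow replicates 2 and 3. The part of depth in these levels was not tested. The only shoot markers at hand were 4 photosynthesis genes that the study had listed as changed, so with no other tissue to compare they do not test the labelled tissue. Their summed level was 56.0 to 75.0 CPM with rolD::acdS, 41.7 to 57.5 CPM with 35S::acdS, 114 to 136 CPM with 8R6 and 38.2 to 53.5 CPM in the control. The 4 flower and seed genes also came from the study's lists of changed genes, and none passed the floor of 2 CPM. They were AGAMOUS-like 80 copies, an RmlC-like cupin gene and a leucine-rich repeat gene, and do not test the tissue either. The 4 flower and seed genes summed to 0.0930 to 0.475 CPM with rolD::acdS, 0.991 to 1.50 CPM with 35S::acdS, 0.476 to 6.06 CPM with 8R6 and 1.77 to 5.94 CPM in the control. Of these, the AGAMOUS-like 80 copy Csa15g007330 had a count of 0 in all 3 rolD::acdS libraries, but only 0.075, 0.087 and 0.180 CPM with 35S::acdS. The cupin gene Csa10g004530 had a higher mean with rolD::acdS (0.224 CPM) than with 8R6 (0.0664 CPM). The others of the 4 had lower means with rolD::acdS than with 8R6. The part of these marker differences in the members' values was not tested, and in bulk RNA fewer cells of a type and less RNA per cell cannot be told apart.

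Taken over all members, the geometric mean level was 0.783, 0.570 and 0.610 in rolD::acdS replicates 1, 2 and 3, relative to each gene's mean over the 12 libraries. With 35S::acdS it was 1.30, 1.04 and 1.22, with 8R6 it was 1.29, 1.06 and 1.11, and in the control it was 1.05, 1.07 and 1.30. The 3 rolD::acdS libraries were not equally low. Replicate 1 had the highest rolD::acdS value in 79 members, and the lowest of all 12 libraries fell in replicate 2 for 53 members and in replicate 3 for 44. Among the other libraries, 35S::acdS replicate 1 held the highest value in 30 members, 8R6 replicate 1 in 20 and control replicate 3 in 16.

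**Figure D1:**
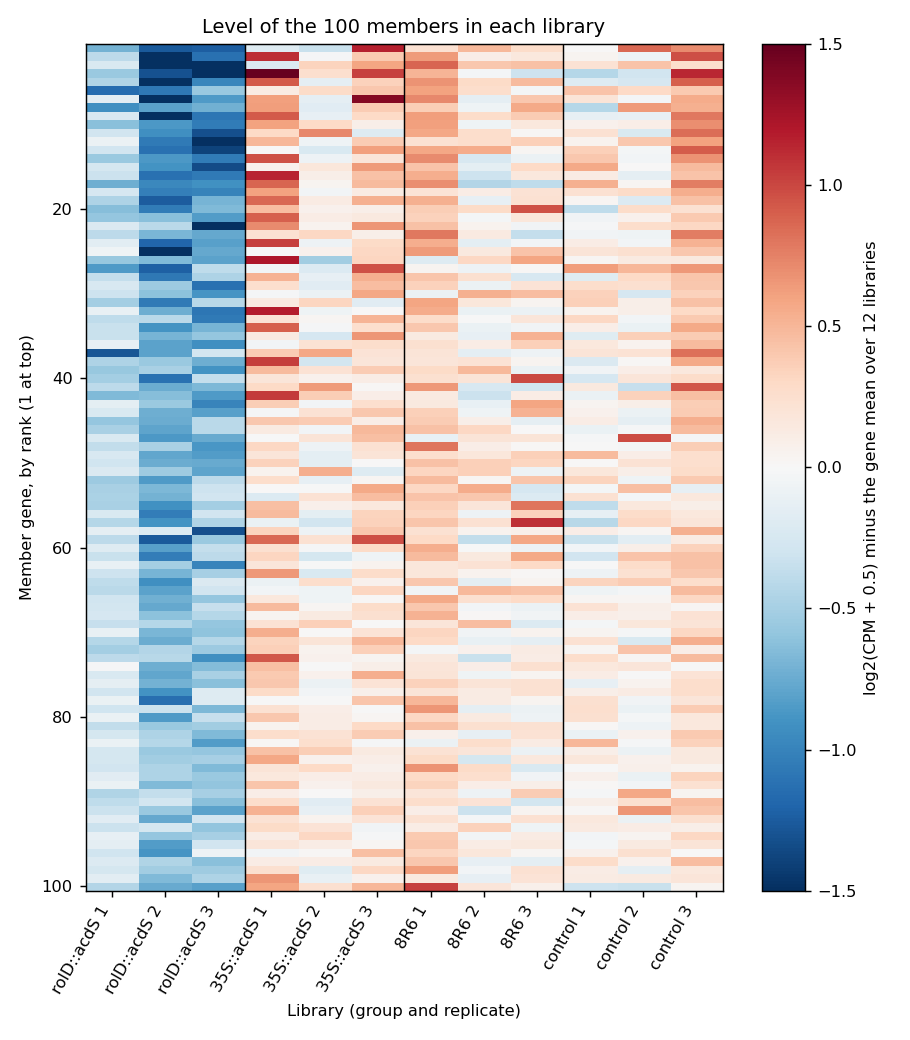
Level of each of the 100 members (rows, rank 1 at the top) in each library (columns, by group and replicate), as log2(CPM + 0.5) minus the gene's mean over the 12 libraries. The 3 rolD::acdS columns are blue by the choice of genes, and replicate 1 is paler than replicates 2 and 3, with geometric means of 0.783, 0.570 and 0.610.

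The size of the difference was modest. The control mean was 1.41 to 3.18 times the rolD::acdS mean (median 1.77), and 28 members stood at 0.5 of the control mean or less. The corresponding ratios of 35S::acdS to rolD::acdS were 1.43 to 5.71 (median 1.80), and those of 8R6 to rolD::acdS were 1.42 to 2.99 (median 1.79). The gap between the groups was narrow, because in 56 members the lowest of the other 9 libraries was under 1.1 times the highest rolD::acdS library. A total of 27 members had under 20 counts in a rolD::acdS library and 7 had under 10. The median control level of the members was 9.76 CPM, against 9.98 CPM over the genes that passed the floor.

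The gene of rank 1 was Csa01g044690, annotated as myo-inositol oxygenase 2 (MIOX2). It had 23.8, 16.0 and 16.3 CPM with rolD::acdS, against 34.1, 30.8 and 88.4 CPM with 35S::acdS, 46.0, 55.1 and 47.5 CPM with 8R6 and 39.3, 71.6 and 64.5 CPM in the control. All 9 other libraries were above the highest rolD::acdS value, and the 35S::acdS libraries spread the most, with replicate 3 far above the others. The log2 fold change of rolD::acdS against control was -1.63 with a standard error (SE) of 0.34.

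Cell wall modification was represented by 3 XTH genes. Csa01g038400 (XTH4, rank 2) had 50.9, 18.4 and 30.5 CPM with rolD::acdS, 145, 66.2 and 88.1 CPM with 35S::acdS, 105, 71.8 and 74.8 CPM with 8R6 and 68.6, 63.6 and 132 CPM in the control. Csa19g035430 (XTH16, rank 4) had 3.01, 1.58 and 1.05 CPM with rolD::acdS, 16.5, 5.65 and 10.0 CPM with 35S::acdS, 6.83, 4.55 and 3.66 CPM with 8R6 and 3.33, 3.73 and 10.8 CPM in the control. In both genes 35S::acdS replicate 1 was the highest library, and the library nearest to the rolD::acdS values was one of the control. Csa11g013140 (XTH24, rank 13) was the member with the highest control mean, at 85.6, 47.9 and 39.4 CPM with rolD::acdS, 105, 89.2 and 160 CPM with 35S::acdS, 156, 154 and 106 CPM with 8R6 and 134, 103 and 196 CPM in the control. Its 35S::acdS mean was 0.82 of the control mean, close to the limit of 0.8 set by the rule.

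Among the proteins of the wall and cell surface, Csa11g101420 (AGP1, rank 11) had 3.44, 2.05 and 1.43 CPM with rolD::acdS, 5.41, 7.39 and 3.69 CPM with 35S::acdS, 6.66, 5.26 and 4.38 CPM with 8R6 and 5.13, 3.60 and 8.10 CPM in the control. Csa12g003890 (AGP18, rank 42, from a lysine-rich subgroup described in Arabidopsis thaliana) had 38.4, 39.2 and 33.6 CPM with rolD::acdS, 127, 78.9 and 65.7 CPM with 35S::acdS, 66.8, 48.9 and 66.1 CPM with 8R6 and 57.0, 77.8 and 83.8 CPM in the control. The 3 rolD::acdS values of AGP18 were close together, whereas those of AGP1 spanned more than a 2-fold range at a few CPM. Csa06g052820 (AGP16, rank 31) had a rolD::acdS mean of 2.79 CPM, against 5.03 CPM with 35S::acdS, 5.73 CPM with 8R6 and 5.81 CPM in the control. Csa08g024430 (rank 12) encodes a pectin acetylesterase, an enzyme that removes acetyl groups from pectin, and had 3.05, 1.30 and 0.760 CPM with rolD::acdS, 4.81, 3.09 and 4.41 CPM with 35S::acdS, 3.89, 4.03 and 4.33 CPM with 8R6 and 3.40, 4.49 and 5.21 CPM in the control. The value of 0.760 CPM rested on 8 counts, and rolD::acdS replicate 1 almost reached the lowest of the 35S::acdS libraries.

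**Figure D2:**
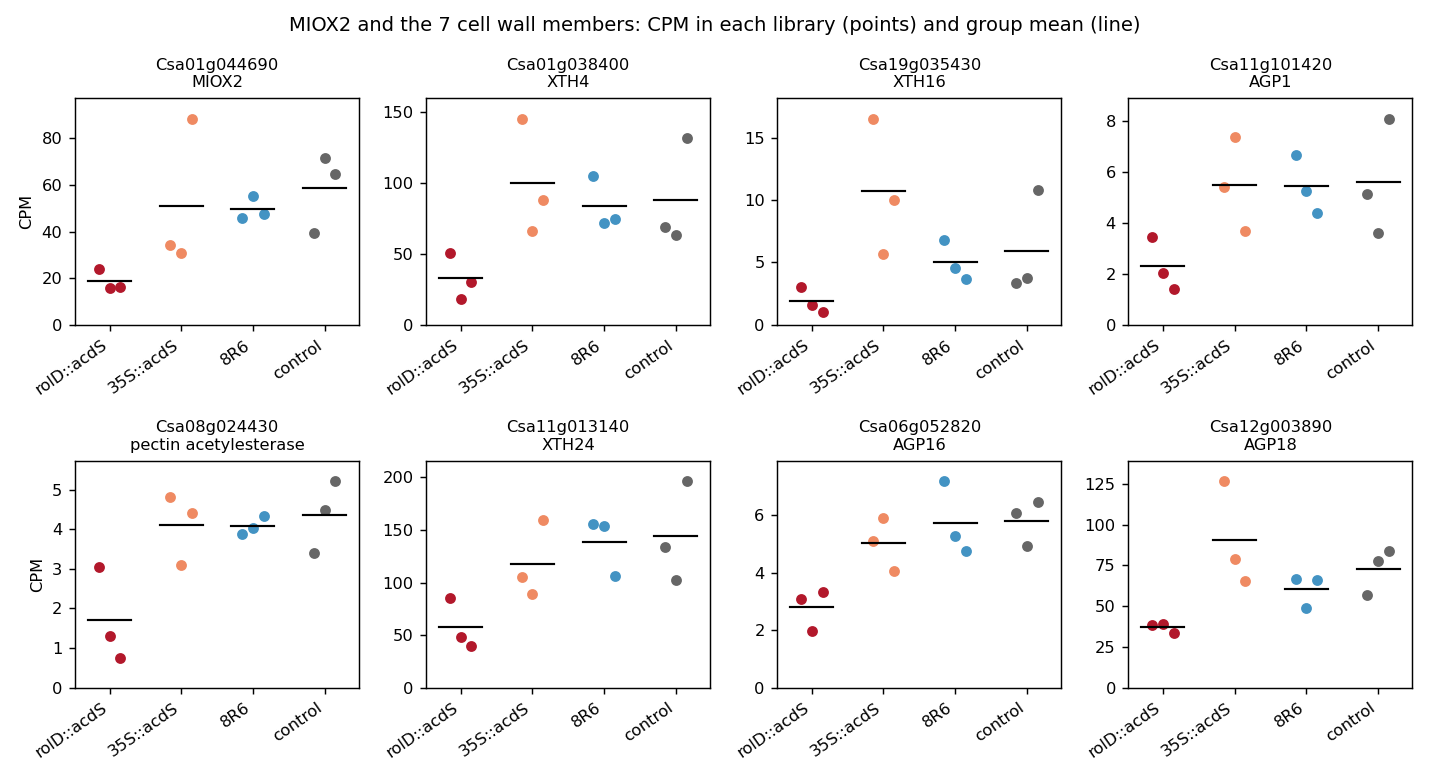
CPM of MIOX2 and of the 7 members of the cell wall bin in each library (points, replicates 1 to 3 from left to right within a group) with the group mean (line), each panel starting at 0. The rolD::acdS points are the lowest in each panel by the choice of genes, and the XTH4, XTH16 and AGP18 panels show 35S::acdS replicate 1 above all other libraries.

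Over the 7 cell wall members together, the geometric mean level was 0.760, 0.456 and 0.435 in rolD::acdS replicates 1, 2 and 3. It was 1.61, 1.14 and 1.24 with 35S::acdS, 1.38, 1.11 and 1.04 with 8R6 and 1.05, 1.02 and 1.70 in the control. Control replicate 3 and 35S::acdS replicate 1 thus stood above the rest of their own groups. In the other 93 members, the same libraries were at 1.27 and 1.28, and the rolD::acdS libraries at 0.785, 0.580 and 0.626.

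Further annotated members belong to the cell surface, to protein turnover or to protein synthesis. Csa20g021870 (rank 16), an early nodulin-like protein with a plastocyanin-like domain, had a rolD::acdS mean of 5.63 CPM, against 15.8 CPM with 35S::acdS, 11.4 CPM with 8R6 and 11.3 CPM in the control. Csa10g021260 (SKU5 similar 4, rank 27) belongs to a family of multicopper oxidase-like proteins named for SKU5, which affects the direction of root growth in A. thaliana. It had 1.25, 0.837 and 1.90 CPM with rolD::acdS, 2.55, 2.22 and 5.59 CPM with 35S::acdS, 2.73, 2.47 and 2.67 CPM with 8R6 and 4.33, 3.92 and 4.41 CPM in the control, the widest control-to-rolD::acdS ratio of the list (3.18) although the rolD::acdS libraries held as few as 9 counts.

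Csa07g030220 (rank 17), an aspartyl protease, had 54.3, 46.1 and 47.8 CPM with rolD::acdS, 165, 92.8 and 125 CPM with 35S::acdS, 147, 66.6 and 68.9 CPM with 8R6 and 131, 91.9 and 155 CPM in the control. Here the lowest 8R6 library was the one nearest to rolD::acdS. The second member of the protein degradation bin was Csa13g002590 (rank 73), of the RING/U-box family whose proteins often act as ubiquitin ligases, with group means of 1.98 CPM for rolD::acdS, 4.34 CPM for 35S::acdS, 3.13 CPM for 8R6 and 3.89 CPM for the control. Csa02g053330 (rank 6) encodes a protein of the ribosomal protein L6 family, part of the large ribosomal subunit, and had 1.89, 2.05 and 3.14 CPM with rolD::acdS, 5.33, 6.001 and 6.58 CPM with 35S::acdS, 7.61, 5.91 and 4.71 CPM with 8R6 and 6.66, 6.07 and 6.53 CPM in the control. The 35S::acdS and control replicates were close together, and those of rolD::acdS and 8R6 were further apart. Csa08g006230 (rank 91) carries ankyrin repeats, which mediate protein binding, and had a rolD::acdS mean of 2.81 CPM and a control mean of 5.84 CPM.

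The remaining members have no known role in the sources used here. Of the 19 annotated members, 5 were recorded as of unknown function, and Csa03g033160 (rank 5) was the first of them, with 14.7, 6.33 and 10.1 CPM with rolD::acdS, 38.8, 18.4 and 25.9 CPM with 35S::acdS, 32.6, 24.8 and 28.4 CPM with 8R6 and 17.7, 17.0 and 38.3 CPM in the control. Csa08g037420 (rank 8) had 1.57 CPM with rolD::acdS and 4.03, 4.03 and 4.06 CPM in 35S::acdS, 8R6 and the control as group means. Csa15g017210 (rank 10) had 2.39 CPM with rolD::acdS and 6.02, 5.67 and 5.90 CPM in the other groups in the same order. These genes thus had nearly equal means outside rolD::acdS, a pattern that the ranking on the smallest of the 3 other means favours.

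The other 81 members carried no annotation. Names were available only for genes that the study had listed as differentially expressed, and its list for rolD::acdS was held only in part. A missing name therefore does not show that the study had left the gene off its list. All 19 annotated members came from the study's list for rolD::acdS. Among the unannotated genes, Csa17g016270 (rank 3) had 25.6, 10.1 and 9.79 CPM with rolD::acdS, 25.8, 38.2 and 45.5 CPM with 35S::acdS, 55.4, 40.0 and 41.0 CPM with 8R6 and 34.9, 40.7 and 36.1 CPM in the control. Its rolD::acdS replicate 1 and its 35S::acdS replicate 1 were nearly equal. Csa17g006940 (rank 7) had 5.54, 0.651 and 3.23 CPM with rolD::acdS, with a wide spread between the rolD::acdS libraries, and its lowest other library, at 5.65 CPM, almost met the highest of them. Csa15g059770 (rank 9) had 72.2, 27.6 and 39.9 CPM with rolD::acdS, 162, 77.9 and 105 CPM with 35S::acdS, 132, 103 and 111 CPM with 8R6 and 78.1, 78.8 and 148 CPM in the control.

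The most abundant members beside XTH24 were also unannotated. Csa04g050460 (rank 88) had 120, 81.6 and 85.4 CPM with rolD::acdS, 173, 136 and 143 CPM with 35S::acdS, 163, 139 and 138 CPM with 8R6 and 131, 125 and 151 CPM in the control. Csa15g034700 (rank 40) had 89.8, 58.5 and 100.1 CPM with rolD::acdS, 145, 134 and 139 CPM with 35S::acdS, 152, 146 and 255 CPM with 8R6 and 107, 145 and 155 CPM in the control. In Csa15g034700, 8R6 replicate 3 stood above all other libraries, and control replicate 1 lay just over rolD::acdS replicate 3.

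By the chromosome in their identifiers, 98 members lay on all 20 chromosomes, with 1 to 10 per chromosome. A single pair had consecutive identifiers, Csa01g025340 (rank 57) and Csa01g025350 (rank 20). The first had 29.7, 21.3 and 29.3 CPM with rolD::acdS, 37.4, 32.8 and 51.1 CPM with 35S::acdS, 53.7, 47.0 and 86.0 CPM with 8R6 and 29.9, 49.8 and 45.4 CPM in the control. The second had 16.1, 12.002 and 15.9 CPM with rolD::acdS, 35.1, 26.6 and 26.9 CPM with 35S::acdS, 32.9, 30.9 and 49.4 CPM with 8R6 and 19.3, 30.8 and 29.8 CPM in the control. Both were highest in 8R6 replicate 3, and in both control replicate 1 was the lowest control library.

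The limit of the list fell within a continuous range of scores. The last members were Csa17g060950, Csa07g004730 and Csa03g013440, with rule scores of 0.49, 0.49 and 0.48 on the log2 scale. The next genes, left out, were Csa13g037950, Csa08g007610 and Csa11g017800, with 0.48, 0.47 and 0.47. Csa03g013440 (rank 100) had 3.48, 2.70 and 2.57 CPM with rolD::acdS and 3.87, 3.79 and 5.09 CPM in the control, against 26.6 and 39.0 CPM as the rolD::acdS and control means of Csa08g007610 (rank 102). The list therefore has no natural end.

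The fit over all genes puts these levels beside the background. Log2 fold changes came from edgeR's quasi-likelihood test on all 12 libraries, with p-values adjusted by Benjamini-Hochberg over 56932 genes, and a gene was called at an adjusted p of 0.05 or less with more than a 2-fold change. For rolD::acdS against control, the median log2 fold change of the members was -0.79 (range -1.67 to -0.49, median SE 0.24), beside 0.01 over all genes tested. No member was called in edgeR's quasi-likelihood test for that comparison, in which 0% of all genes were called, the smallest adjusted p being 0.103, while 96 members had an unadjusted p under 0.05, beside 8.35% of all genes. DESeq2 called 11 members beside 0.288% of all genes, limma 0 beside 0.00176%, and edgeR's exact test at a fixed biological coefficient of variation (BCV) of 0.2 called 23 beside 2.38%. Against 35S::acdS the median was -0.82, edgeR's quasi-likelihood test called 0 members and 0% of all genes, and 100 members had an unadjusted p under 0.05, beside 12.9% of all genes. There DESeq2 called 20 members beside 0.188% of all genes, limma 0 beside 0.00176% and the exact test 35 beside 2.41%. Against 8R6 the median was -0.81, and 1 member was called, Csa02g053330 of the ribosomal protein L6 family, beside 0.0755% of all genes, with 97 members at an unadjusted p under 0.05 beside 12.5% of all genes. Csa02g053330 was not called in the 6 libraries of the comparison, where no member was, nor with the replicate block, where the called member was Csa05g004080. DESeq2 called 22 members beside 0.833% of all genes, limma 2 beside 0.119% and the exact test 31 beside 3.08%. These counts describe the choice of genes and support nothing, since the rule used the same libraries.

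The comparisons among the other 3 groups were not used to find low rolD::acdS values, although the ranking on the smallest of the 3 means favours genes with similar levels there. The limit on 35S::acdS worked in 1 direction, as it removed only genes under 0.8 of the control mean. A member could therefore not be called lower in 35S::acdS than in the control. The counts higher and lower in 35S::acdS, and their range, are skewed by that limit. For 35S::acdS against control, the median log2 fold change of the members was 0.05, with 65 members higher and 35 lower in 35S::acdS, and the range was -0.34 to 0.86 (median SE 0.23). For 8R6 against control the median was 0.01, with 56 members higher and 44 lower in 8R6 and a range of -0.68 to 0.75 (median SE 0.22). The 2 comparisons share the control libraries. For 8R6 against 35S::acdS the median was -0.01 and the range -1.08 to 0.64. Over all genes tested these medians were 0.00, 0.00 and 0.00.

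In the model of all 12 libraries without a block, no member was called in any of these 3 comparisons by edgeR's quasi-likelihood test after Benjamini-Hochberg adjustment, beside 0% of all genes for 35S::acdS against control, 0.00176% for 8R6 against control and 0.0509% for 8R6 against 35S::acdS. For 35S::acdS against control, calls lower in 35S::acdS were barred by the limit of the rule. There DESeq2, limma and the exact test with a BCV of 0.2 each called 0 members, beside 0.0334%, 0% and 1.82% of all genes. For 8R6 against control they also called 0, beside 0.369%, 0.00703% and 1.54%. For 8R6 against 35S::acdS they called 0, 0 and 1 members, beside 1.75%, 0.0703% and 4.84%. At an unadjusted p under 0.05 there were 2 members for 35S::acdS against control, 6 for 8R6 against control and 4 for 8R6 against 35S::acdS, beside 7.77%, 9.62% and 20.7% of all genes. For 8R6 against 35S::acdS, the replicate numbers were taken to pair the libraries. This pairing was inferred from correlations in these same counts, as the labels do not give it. Results with the block are therefore given as a description only. The 6 libraries with the replicate block then gave 1 member called beside 2.63% of all genes. In the same fit, 12 members had an unadjusted p under 0.05 beside 24.6% of all genes. The members' shares were below those of all genes in the unadjusted counts, in the direction that the rule favours.

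**Figure D3:**
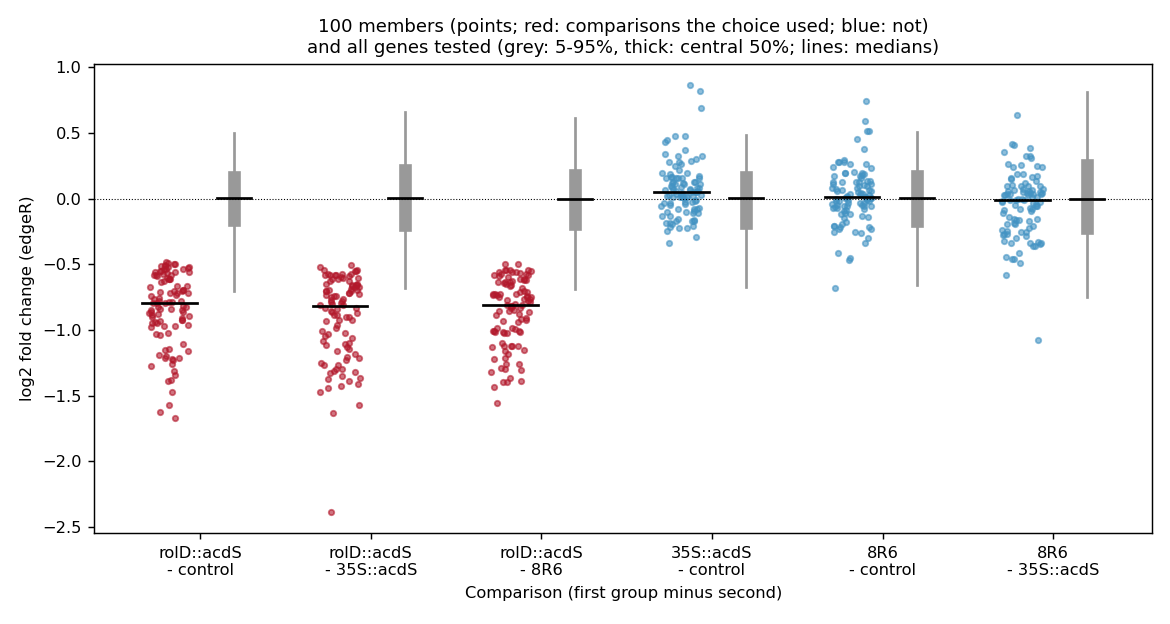
Log2 fold change from edgeR for the 100 members (points, jittered sideways, with their median) and for all 56932 genes tested (grey, 5th to 95th percentile with the central 50% as a thick bar), in 6 comparisons named as first group minus second. The members lie below 0 by the choice of genes in the 3 rolD::acdS comparisons (red), with medians of -0.79, -0.82 and -0.81, and around 0 in the others (blue), with medians of 0.05, 0.01 and -0.01.

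The members that came nearest to a difference outside rolD::acdS were few. Csa03g013440 (rank 100) was higher at an unadjusted p under 0.05 in 8R6 and in 35S::acdS than in the control, with log2 fold changes of 0.75 (SE 0.25) and 0.69 (SE 0.25). Its 8R6 libraries had 10.5, 5.65 and 5.19 CPM and its 35S::acdS libraries 7.66, 5.91 and 7.12 CPM, all above the control values of 3.87, 3.79 and 5.09 CPM. Csa14g011180 (rank 59) had 10.97, 6.91 and 11.9 CPM with 35S::acdS, against 4.53, 5.18 and 6.40 CPM in the control, for a log2 fold change of 0.86 (SE 0.29). SKU5 similar 4 was the only one of the 6 members at an unadjusted p under 0.05 for 8R6 against control that was lower in 8R6, with a log2 fold change of -0.68 (SE 0.30). The 5 others, Csa03g013440 included, were higher in 8R6 and unannotated. After adjustment with edgeR's quasi-likelihood test, the smallest p of a member was 0.633 for 35S::acdS against control, 0.352 for 8R6 against control and 0.186 for 8R6 against 35S::acdS, or 0.0334 for 8R6 against 35S::acdS in the 6 libraries with the replicate block.

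A pair of wall genes were among the 4 members at an unadjusted p under 0.05 for 8R6 against 35S::acdS. XTH16 (Csa19g035430) had a log2 fold change of -1.08 (SE 0.48), with 6.83, 4.55 and 3.66 CPM in 8R6 and 16.5, 5.65 and 10.0 CPM in 35S::acdS, and the 2 groups overlapped. Its adjusted p was 0.227 with edgeR's quasi-likelihood test. In the 6 libraries with the replicate block the adjusted p of Csa19g035430 was 0.0409, at a log2 fold change of -1.03. With the replicate block in all 12 libraries it was 0.199. Both values with the block rest on a pairing that the labels do not give. AGP18 (Csa12g003890) had a log2 fold change of -0.58 (SE 0.23) in the same comparison, with an adjusted p of 0.186 in edgeR's quasi-likelihood test.

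The members' low level could not be tested in the libraries that chose them, and it stays untested here. Instead, the rule was repeated on part of the libraries, and the genes it then gave were read in the rest. These genes were other sets, with 28, 48 and 26 members among the 100 of each, so their readings do not test the members. The rule was applied to 8 libraries, with 1 replicate number left out of all 4 groups, and the 100 genes it gave were read in the 4 libraries left out, for each of the 3 numbers. The left-out rolD::acdS library was the lowest of the 4 in 57, 85 and 49 of the 100 genes with replicates 1, 2 and 3 left out. Over the genes that could have been chosen, those past the floor and the limit on 35S::acdS, the shares were 20.3%, 21.3% and 29.1%. Summed over the 3 sets, 191 of 300 readings (63.7%) had rolD::acdS lowest, beside 23.4% of 110039 readings over all genes that could have been chosen. The genes of one set are not independent of each other, and no p is given.

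**Figure D4:**
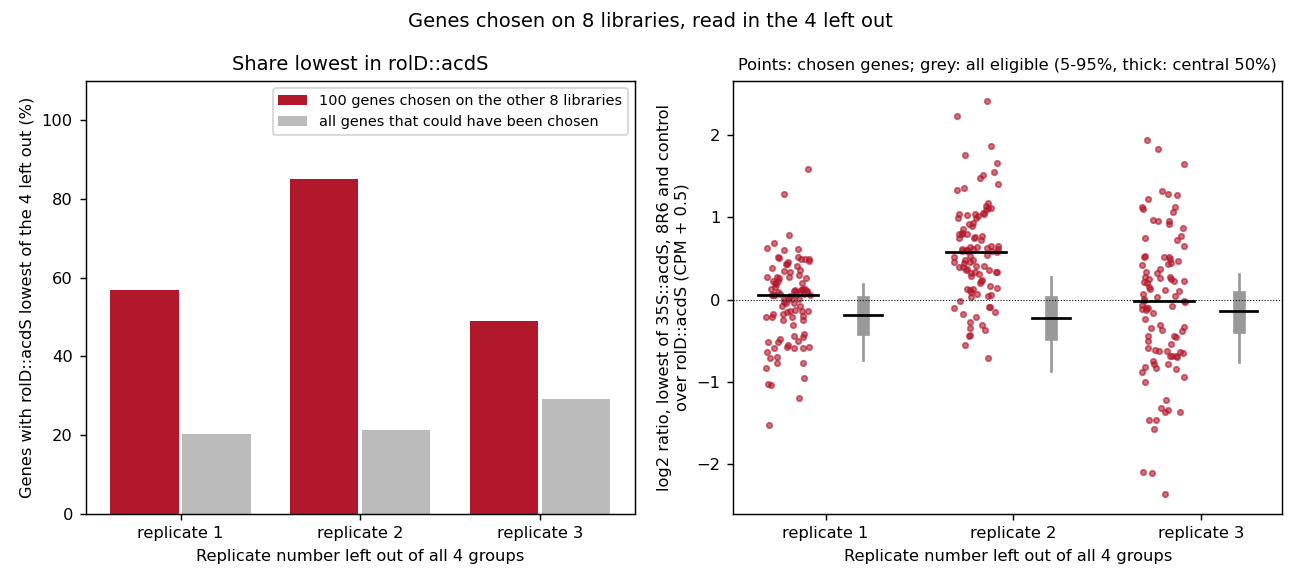
Left, the percentage of genes with rolD::acdS lowest of the 4 libraries left out, for the 100 genes chosen on the other 8 libraries (red) and for all genes past the floor and the 35S::acdS limit (grey), for each replicate number left out. Right, the log2 ratio of the lowest of 35S::acdS, 8R6 and control over rolD::acdS in the left-out libraries, with points for chosen genes, grey bars for all eligible genes (5th to 95th and 25th to 75th percentile) and black lines for medians, which were 0.06, 0.58 and -0.02 for the chosen genes.

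The median log2 ratio of the lowest other library over rolD::acdS was 0.06, 0.58 and -0.02 with replicates 1, 2 and 3 left out. Over all genes that could have been chosen, the medians were -0.18, -0.22 and -0.14 on the same measure, which sets the lowest of 3 single libraries against 1. The median ratio of the control library to the rolD::acdS library, with 0.5 CPM added to both, was 1.1995, 1.80 and 2.87 for the chosen genes, beside 0.981, 0.966 and 1.07 for the genes that could have been chosen. Set against the control library alone, rolD::acdS was lower in 79, 96 and 98 of the 100 genes, beside 44.8%, 43.6% and 61.7% of the genes that could have been chosen. Against 35S::acdS it was lower in 70, 91 and 84 genes, beside 49.2%, 44.3% and 66.5%, and against 8R6 in 91, 90 and 55 genes, beside 50.7%, 45.7% and 46.3%. The weakest of these 9 comparisons was thus rolD::acdS replicate 3 against 8R6 replicate 3.

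Which genes were chosen also depended on the libraries. The 3 sets shared 28, 48 and 26 genes with the 100 members, and 9 members were in all 3 sets. These were the unannotated Csa17g016270, Csa17g006940, Csa10g036220, Csa05g004080 and Csa01g025350, the 2 genes of unknown function Csa03g033160 and Csa15g017210, the ribosomal protein L6 gene Csa02g053330 and the early nodulin-like Csa20g021870. None of the 3 XTH members was among them. The 3 sets held 12, 15 and 4 genes of the cell wall bin, of which 11, 12 and 4 were lowest in the left-out rolD::acdS library, counts that rest on a bin annotated only for genes that the study called in these libraries.

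As C. sativa carries 3 subgenomes, most genes occur as homeologous copies with the same A. thaliana ortholog. An A. thaliana ortholog was known for only 18 members. No 2 of these 18 shared an ortholog, but 7 of them had copies outside the list, 10 in all. Whether the remaining members shared orthologs could not be checked, as none was given for them. In all 10 the rolD::acdS mean was the lowest of the 4 group means, and the control mean was 2.10 to 4.15 times the rolD::acdS mean. This is in part fixed by their source, since the copies were found in the study's lists of genes called in these libraries. Each missed the list because a rolD::acdS library was above the lowest of the other 9, with 1 other library below it in 7 copies and 2 in 3 copies, and in 5 of the 10 the 35S::acdS mean was also under 0.8 of the control mean. Csa11g024240 failed the floor of 2 CPM as well, with means of 1.94 CPM in 35S::acdS and 1.85 CPM in 8R6. How reads shared by near-identical copies were counted was not given in the sources used here, so levels of single copies are uncertain.

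The XTH16 and XTH4 copies had the same order of rolD::acdS and control means as the members, and the XTH24 copies stood apart from their partner in 35S::acdS. Csa15g046990, the second XTH16 gene, had 3.18, 1.40 and 1.24 CPM with rolD::acdS, 11.4, 6.61 and 11.3 CPM with 35S::acdS, 8.87, 2.73 and 4.66 CPM with 8R6 and 5.13, 3.47 and 9.67 CPM in the control, and it missed the list through 8R6 replicate 2 alone. Csa19g040890, the second XTH4 gene, had 48.6, 22.0 and 22.2 CPM with rolD::acdS, 78.7, 47.4 and 61.7 CPM with 35S::acdS, 84.2, 59.8 and 70.6 CPM with 8R6 and 58.1, 56.7 and 85.8 CPM in the control. Of the XTH24 copies, Csa10g012230 had 19.4, 9.40 and 8.74 CPM with rolD::acdS, 17.7, 15.2 and 33.2 CPM with 35S::acdS, 45.6, 52.2 and 43.3 CPM with 8R6 and 40.4, 45.3 and 70.4 CPM in the control, so that 35S::acdS stood at 0.42 of the control mean, against 0.82 in the member Csa11g013140, and the corresponding ratio in Csa12g016890 was 0.67. The 3 XTH24 copies were not tested against each other.

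The 2 AGP18 copies were close to rolD::acdS in 8R6 as well. Csa10g003690 had 15.4, 13.9 and 12.1 CPM with rolD::acdS, 76.2, 38.4 and 31.4 CPM with 35S::acdS, 22.3, 14.7 and 18.5 CPM with 8R6 and 20.3, 28.6 and 44.7 CPM in the control. Csa11g004150 had group means of 27.9 CPM with rolD::acdS, 69.5 CPM with 35S::acdS, 35.7 CPM with 8R6 and 61.5 CPM in the control. In the second MIOX2 gene, Csa15g084540, the values were 19.3, 19.5 and 26.4 CPM with rolD::acdS, 23.1, 21.3 and 58.5 CPM with 35S::acdS, 26.6, 45.2 and 36.4 CPM with 8R6 and 32.5, 59.5 and 44.9 CPM in the control. As in the member Csa01g044690, 35S::acdS replicate 3 stood apart from the other 35S::acdS libraries. The second aspartyl protease gene, Csa16g023600, had 46.1, 47.9 and 45.2 CPM with rolD::acdS and missed the list because 8R6 replicate 2 was at 43.1 CPM. The SKU5 similar 4 copies Csa11g024240 and Csa12g036080 had control-to-rolD::acdS ratios of 3.34 and 2.92, the first in a gene that failed the floor.

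**Figure D5:**
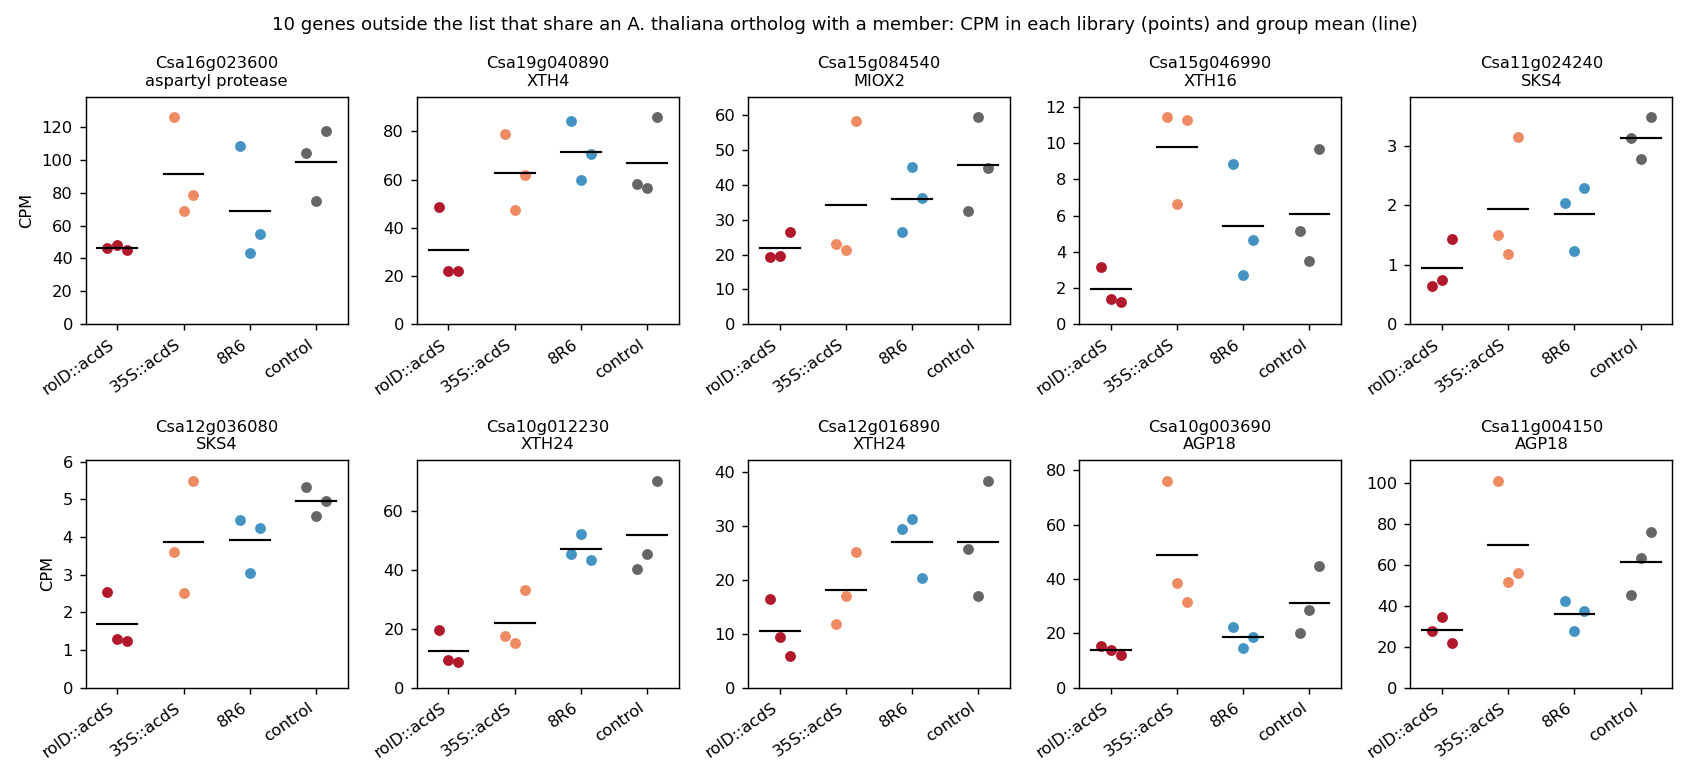
CPM in each library (points, replicates 1 to 3 from left to right within a group) and group mean (line) of the 10 genes outside the list that share an A. thaliana ortholog with a member, each panel starting at 0. The rolD::acdS mean is the lowest in all 10 panels, with control means 2.10 to 4.15 times higher, and in every panel at least 1 library of 35S::acdS or 8R6 lies below the highest rolD::acdS library.

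The members were also counted in 13 lists of genes from the annotation of the study's called genes. These lists were drawn on the same libraries and are no independent evidence of direction. Members fell in 2 lists, 7 of 75 genes in the cell wall bin and 2 of 69 in the protein degradation bin, and in none of the 11 others, which held only 0 to 20 genes past the floor each, too few for a count of 0 to be read as a difference. Of the 55 cell wall genes past the floor, 10 had all rolD::acdS libraries lowest, beside 0.89% of all genes past the floor. The 3 that were not members, XTH15 (Csa10g032600), beta-xylosidase 2 (Csa17g001430) and Csa19g046190, were left out for 35S::acdS means of 0.53, 0.74 and 0.76 of the control mean.

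The 67 tested cell wall genes outside the members had median log2 fold changes of -1.34 for rolD::acdS against control, -0.36 for 35S::acdS against control and -0.20 for 8R6 against control. The 3 comparisons share the control libraries. In the ethylene bin, with 20 genes tested and no member, the same medians were -1.59, -0.91 and -0.93, and over the 24 WRKY factors tested they were -1.56, -0.86 and -0.87. In the 5 genes of alternative oxidase and type II NADH dehydrogenase, which also hold no member, they were -2.0001, -0.34 and -0.57, so that low medians in rolD::acdS with smaller ones in the other groups were not restricted to the cell wall bin. The control mean was the highest of the 4 group means in 16.5% of all genes past the floor. It was highest in 19 of 55 cell wall genes past the floor, 11 of 12 ethylene genes and 12 of 13 WRKY factors. Among the 100 members the highest mean was that of 35S::acdS in 40, of 8R6 in 35 and of the control in 25. The choice bars rolD::acdS from being highest in a member, so these counts cannot be set beside the share of all genes. None of the 74 cell wall genes tested was called in the 3 comparisons with the control by edgeR's quasi-likelihood test. Of all genes, 0% were called for rolD::acdS, 0% for 35S::acdS and 0.00176% for 8R6. At an unadjusted p under 0.05 in that test there were 56, 18 and 19 cell wall genes in the same order, beside 8.35%, 7.77% and 9.62% of all genes. The bin holds only genes that the study had called in these libraries, so these counts are in part fixed by their source. In DESeq2, 164 genes in all were called for rolD::acdS against control, beside 19 for 35S::acdS and 210 for 8R6.

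Genes set apart in a single group were found for every group. All 3 libraries of a group lay below the other 9 in 1.53% of genes past the floor for 35S::acdS, 2.25% for 8R6 and 0.339% for the control, with the floor set on the 3 other groups each time, beside the 0.89% of rolD::acdS. All 3 libraries lay above the other 9 in 0.848% for rolD::acdS, 1.56% for 35S::acdS, 2.03% for 8R6 and 0.413% for the control.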

How the data were processed

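Shoot RNA from 12 libraries (3 in each of 4 groups) was analysed. Reads were trimmed with Trimmomatic and mapped with STAR to the C. sativa genome, and the authors deposited read counts per gene as whole numbers. The table is named for CPM, but the values are counts, with totals of 10520627 to 23587748, and were tested as such. How reads of similar copies were counted was not given in the sources used here. CPM were computed here from the column totals. The members, gene lists and tests were chosen with earlier results of these data known.

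Genes with 0.5 CPM or more in at least 3 libraries (56932) were fitted with edgeR 4.0.16 in R 4.3.3 (TMM, quasi-likelihood test, all groups in 1 model, Benjamini-Hochberg adjustment, common BCV 0.189). SEs are the absolute log2 fold change over the square root of F. The fit and the rule were run on simulated data with larger changes than most members showed. For the rule, the changed genes were also at higher levels than most members. These runs do not show how the fit or the rule performs on the members. Alternatives were DESeq2, limma on log2(CPM + 0.5), an exact test with a BCV of 0.2, RLE scaling, no filter, the 6 libraries compared, a replicate block and each library left out.

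Replicate numbers were checked by the correlation of deviations from group means. All 3 pairs exceeded 0.1 only for 8R6 and 35S::acdS (0.224, 0.196 and 0.222), where the numbers were taken to pair the libraries. With the control, the values were 0.306, 0.219 and -0.389 for 8R6 and 0.066, -0.078 and -0.256 for 35S::acdS. For rolD::acdS they were 0.318, 0.067 and 0.171 with 8R6 and 0.127, -0.054 and -0.004 with 35S::acdS. With the control, those of rolD::acdS were 0.158, 0.125 and -0.153. The values thus differed in sign, and the pairing was picked on the same counts. Nothing in the labels says what a number stands for. The libraries of a group are stated to be biological replicates.

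Annotation came from the study's supplementary gene lists, of which the list for rolD::acdS was held in part, and none of the 89418 identifiers matched the reference gene table, so no sequence is shown. Columns of the authors' own comparisons were not used. Named genes were the 12 of highest rank, those sharing an ortholog with another gene, up to 3 per list, ranks 98 to 103, members called among the other 3 groups, consecutive identifiers and the 3 of highest control mean. Other genes were named after their values were seen.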

Additional observations from a re-analysis of the deposited data

How the results depend on the processing

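The median log2 fold change of the members for rolD::acdS against control was -0.79 and ranged between -0.96 and -0.68 without one library at a time, and it was -0.81 with the replicate block. The counts of members called were 0 for 8R6 against control and for 35S::acdS against control in all alternatives run, the replicate block included (0 and 0). For 35S::acdS against control the rule barred calls lower in 35S::acdS beforehand, so that count is in part fixed by the choice of genes. For 8R6 against 35S::acdS the count was 0, also without any one library, but 1 under the exact test with a BCV of 0.2 and 1 in the 6 libraries with the replicate block, an alternative chosen after seeing the data. It was XTH16 both times. With the block, 222 of all genes were called in that comparison in 12 libraries, against 29 without it, and 1449 in 6 libraries, against 0 without it. Of the 100 members, 30 to 90 were kept without one library at a time. The lowest counts were 30 without rolD::acdS replicate 1, 52 without 8R6 replicate 3 and 65 without rolD::acdS replicate 3. Requiring 35S::acdS to equal or exceed the control kept 64, and TMM-scaled CPM, other pseudocounts, other floors and no 35S::acdS limit kept 70 to 94. The cause was not tested. Readings lowest in left-out rolD::acdS libraries were 190 with TMM-scaled CPM and 198 with a floor of 5 CPM, against 191 of 300.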
